A study of Mus musculus with 96 samples.

Results

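Liver RNA from Bmal1 knockout (KO) mice was compared with that from wild-type (WT) mice of the Bmal1 line at zeitgeber time 20 (ZT20, that is 20 h after lights on), late in the dark phase. The comparison holds 8 of the 96 libraries of the series, chosen by genotype and time alone, with 4 KO and 4 WT libraries. In each genotype 2 libraries came from mice fed ad libitum (AL, numbered 1 and 8) and 2 from mice fed only at night (restricted feeding, RF, numbered 2 and 4), and feeding was held as a block. The mice were 12 to 16 weeks old, and poly(A) RNA was sequenced as stranded paired-end libraries. The other 40 libraries of the Bmal1 line, at the other times, set the spread between libraries in the fit, and the 8 at ZT8, 12 h away on the clock, served as the comparison phase. The labels call the knockout groups Bmal1 KO without naming the allele, the cell types in which it acts, the sex, or whether each library is 1 animal, so a p-value here measures the spread between these libraries. The labels state no other mutation or treatment in either genotype.

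BMAL1, encoded by Arntl, pairs with CLOCK or NPAS2 and activates genes through E-box sequences. Among its targets are its own repressors, the PER and CRY proteins, the REV-ERB receptors that compete with ROR receptors at RORE sequences of Arntl, Npas2 and Cry1, and the PAR bZIP factors DBP, TEF and HLF, which act at D-box sequences together with the repressor NFIL3. In liver BMAL1 is known to be most active around the middle of the day, and the late night is the phase at which E-box output is low and RORE output is high.

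The promoter sequences below, from RefSeq on GRCm38.p6 and written 5′ to 3′ on the gene's strand, are shown because their genes carry the results that follow. Capitals mark the E-box CACGTG in clock repressors, in Tef and in 2 genes of sugar use, the D-box TTANGTAA in Per3 and Alb, and the RORE (AANTA followed by GGTCA) in Arntl. Other named genes with a match are not shown, and their directions at ZT20 were mixed. An E-box was also present in Nebl and Wdr43 (higher in KO), Arsa (lower) and Per1 (not called). A D-box was also present in Prlr (higher), Ugt1a9 (lower) and Slc45a3 (not called). The windows searched ran from 250 bases before to 50 bases after each RefSeq start on both strands, and 11734 genes tested had one. No match of one motif overlaps that of another in these sequences.
Ciart (chr3:95882237-95882364, minus strand): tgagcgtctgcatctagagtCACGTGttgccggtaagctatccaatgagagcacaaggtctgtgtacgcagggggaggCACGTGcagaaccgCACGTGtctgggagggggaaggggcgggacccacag
Bhlhe41 (chr6:145865538-145865603, minus strand): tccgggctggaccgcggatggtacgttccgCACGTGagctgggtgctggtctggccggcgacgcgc
Cry1 (chr10:85185079-85185144, minus strand): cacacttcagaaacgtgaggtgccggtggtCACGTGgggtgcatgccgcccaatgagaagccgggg
Tef, upstream start (chr15:81802534-81802563, plus strand): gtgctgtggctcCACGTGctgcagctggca
Tef, downstream start (chr15:81811264-81811293, plus strand): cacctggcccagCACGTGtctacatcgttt
Mlxipl (chr5:135089762-135089827, plus strand): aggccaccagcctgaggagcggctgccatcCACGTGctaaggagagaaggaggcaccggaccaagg
Khk (chr5:30921476-30921505, plus strand): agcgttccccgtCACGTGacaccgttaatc
Per3 (chr4:151044796-151044890, minus strand): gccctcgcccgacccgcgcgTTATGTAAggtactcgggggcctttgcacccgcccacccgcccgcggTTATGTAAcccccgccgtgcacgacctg
Alb (chr5:90460627-90460693, plus strand): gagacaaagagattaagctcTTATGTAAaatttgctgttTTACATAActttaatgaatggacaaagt
Arntl (chr7:113207528-113207557, plus strand): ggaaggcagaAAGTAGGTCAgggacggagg

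The shares below are of genes with at least 1 window. A match in any window of a gene counted, so genes with several starts had more chances to match. The E-box was present in 11.1% of all tested genes with a window, in 10.4% of those lower in KO at ZT20 and in 11.6% of those higher. Of the genes lower in KO at ZT8, 15.8% held it. The D-box was present in 2.04% of all tested genes with a window. It was present in 5.19% of those lower in KO at ZT20 (18 of 347) and in 0.595% of those higher (2 of 336). The RORE was present in 0.196% of all tested genes with a window, and in 3 of 47 genes (6.38%) whose knockout effect was lower at ZT20 than at ZT8. These shares are descriptions of letters in the windows and were not tested.

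At ZT20, 902 of 17250 tested genes (5.23%) differed between KO and WT with an adjusted p under 0.05 (edgeR quasi-likelihood test, Benjamini-Hochberg over all tested genes, used throughout), 450 higher in KO (2.61%) and 452 lower (2.62%). Of these, 463 differed by at least 1 log2 unit, 209 higher and 254 lower. In 727 of the 902 (80.6%) all 4 KO libraries lay on one side of all 4 WT libraries. Over all tested genes the KO libraries lay above in 4.91% and below in 4.71%. Calls and separation come from the same values, so the separation is not separate evidence. Library totals at ZT20 ran from 3181499 counts in KO RF 2 to 29044123 in WT RF 2, and a gene at a normalised level of 5 CPM (counts scaled to library size) had about 18.3 reads in KO RF 2. The number of calls rested on single libraries: it was 432 without KO RF 4, 575 without KO AL 8, 559 without WT AL 1 and 569 without WT RF 2. In counts simulated for this comparison, 200 of 16748 genes were changed, all picked above a minimum mean level. The test recovered 72% of changes of 1 log2 unit and 95% of changes of 2 units. The simulation did not change genes at lower levels and held no deviating library, so recovery in these data can differ.

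Arntl RNA was lower in KO at ZT20. Its level was 11.5, 10.7, 14.8 and 15.5 CPM in KO AL 1, AL 8, RF 2 and RF 4, and 28.1, 33.4, 32.4 and 32.4 CPM in the corresponding WT libraries. The groups did not overlap, and the log2 fold change was -1.28 (SE 0.23, adjusted p = 0.000688). The counts are per gene (chr7:113207465-113314126, mm10, plus strand), and the labels do not say which exons the allele lacks, so this level does not check the knockout. The direction depended on the time: at ZT8 Arntl was higher in KO, with a log2 fold change of 3.08 (SE 0.27, adjusted p = 2.81e-09). The KO mean stayed between 12.6 and 15.5 CPM at the 6 times, while the WT mean ran from 1.19 CPM at ZT12 to 36.8 CPM at ZT0.

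Npas2, the partner that can replace CLOCK, was the clock gene with the largest rise. It measured 51.8, 30.8, 40.0 and 50.7 CPM in the KO libraries and 3.70, 8.60, 2.03 and 3.16 CPM in WT, with no overlap (log2 fold change 3.48, SE 0.26, adjusted p = 3.26e-10). Clock itself did not pass the test, at 94.5 to 122 CPM in KO and 50.5 to 105 CPM in WT (log2 fold change 0.33, SE 0.18, adjusted p = 0.313). It passed without WT AL 8 (adjusted p = 0.0299). Arntl2, a paralogue of Arntl, was near 1 CPM in every library and did not pass (0.46, SE 0.35, adjusted p = 0.519). In this set of 4 activators 1 was higher and 1 lower.

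The REV-ERB genes differed in their calls. Nr1d1, which encodes REV-ERBα, measured 1.52, 1.91, 0.548 and 3.80 CPM in KO and 1.56, 1.39, 2.29 and 2.10 CPM in WT. Both groups were low and overlapped (log2 fold change 0.30, SE 0.39, adjusted p = 0.747). Nr1d2, which encodes REV-ERBβ, was lower in KO at 4.43, 13.7, 6.85 and 8.37 CPM against 13.1, 15.2, 33.7 and 28.3 CPM in WT (log2 fold change -1.34, SE 0.31, adjusted p = 0.00803), with KO AL 8 above WT AL 1. This call was lost without KO AL 1 (adjusted p = 0.0684) or KO RF 4 (adjusted p = 0.053). Rora, which encodes RORα, did not pass (log2 fold change 0.13, SE 0.20, adjusted p = 0.799).

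Of the PER and CRY repressors, 1 of 5 passed. Per3 was lower, at 8.74, 6.87, 6.02 and 10.2 CPM in KO and 13.9, 15.2, 21.4 and 21.2 CPM in WT (log2 fold change -1.09, SE 0.22, adjusted p = 0.00225). Its groups did not overlap, and the call was kept in each of the 8 fits that left out 1 library. Per1 (-0.58, SE 0.50, adjusted p = 0.58) and Per2 (-0.39, SE 0.28, adjusted p = 0.492) did not pass, although all 4 KO libraries lay below all 4 WT libraries for Per2, at 35.0 to 50.1 CPM against 53.1 to 71.2 CPM (4.71% of tested genes had all KO libraries below and 4.91% above). Cry1 measured 77.6, 74.9, 69.0 and 80.5 CPM in KO and 53.8, 54.6, 51.1 and 57.0 CPM in WT. The 2 groups of Cry1 did not overlap, and its log2 fold change of 0.48 (SE 0.18) did not pass (adjusted p = 0.116). In a fit of the 8 ZT20 libraries alone it passed (adjusted p = 0.027), while 17 other named genes, Nr1d2 among them, lost their call at ZT20 in that fit. Cry2 was at 43.1 to 57.5 CPM against 36.1 to 44.9 CPM (0.38, SE 0.13, adjusted p = 0.0982).

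None of the 4 PAR bZIP genes and Nfil3 passed at ZT20. Dbp measured 3.81, 2.06, 2.74 and 3.00 CPM in KO and 5.46, 1.73, 3.49 and 4.08 CPM in WT (log2 fold change -0.26, SE 0.33, adjusted p = 0.738), so the groups overlapped at a low level. Tef lay at 91.9 to 115 CPM in KO and 100 to 128 CPM in WT (-0.17, SE 0.11, adjusted p = 0.412). The values for Hlf (-0.08, SE 0.17, adjusted p = 0.87) and Nfil3 (-0.23, SE 0.21, adjusted p = 0.61) also showed overlap between genotypes.

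Both of the smaller E-box repressors that passed were lower. Ciart, which encodes CHRONO, measured 0.617, 0.229, 1.37 and 0.676 CPM in KO and 3.64, 2.36, 2.79 and 2.76 CPM in WT (log2 fold change -2.19, SE 0.48, adjusted p = 0.0044), and the call was lost without KO RF 4 (adjusted p = 0.106). Bhlhe41, which encodes DEC2, had 5 reads in all 4 KO libraries together, at 0.109, 0, 0 and 0.0845 CPM, against 0.585, 2.02, 0.665 and 1.45 CPM in WT (adjusted p = 0.00141). Its close relative Bhlhe40 (DEC1) did not pass, at 64.1 to 83.5 CPM in KO and 59.9 to 106 CPM in WT (-0.11, SE 0.21, adjusted p = 0.848). Over a list of 20 E-box targets written from general knowledge, 0 members were higher (background over all tested genes 2.61%) and 7 lower (background 2.62%) at ZT20. Their median log2 fold change was -0.32, beside 0.01 over all tested genes. The count was 3 without KO RF 4. Over 10 RORE genes 1 was higher (Npas2) and 1 lower (Arntl), with a median of 0.17.

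**Figure D1:**
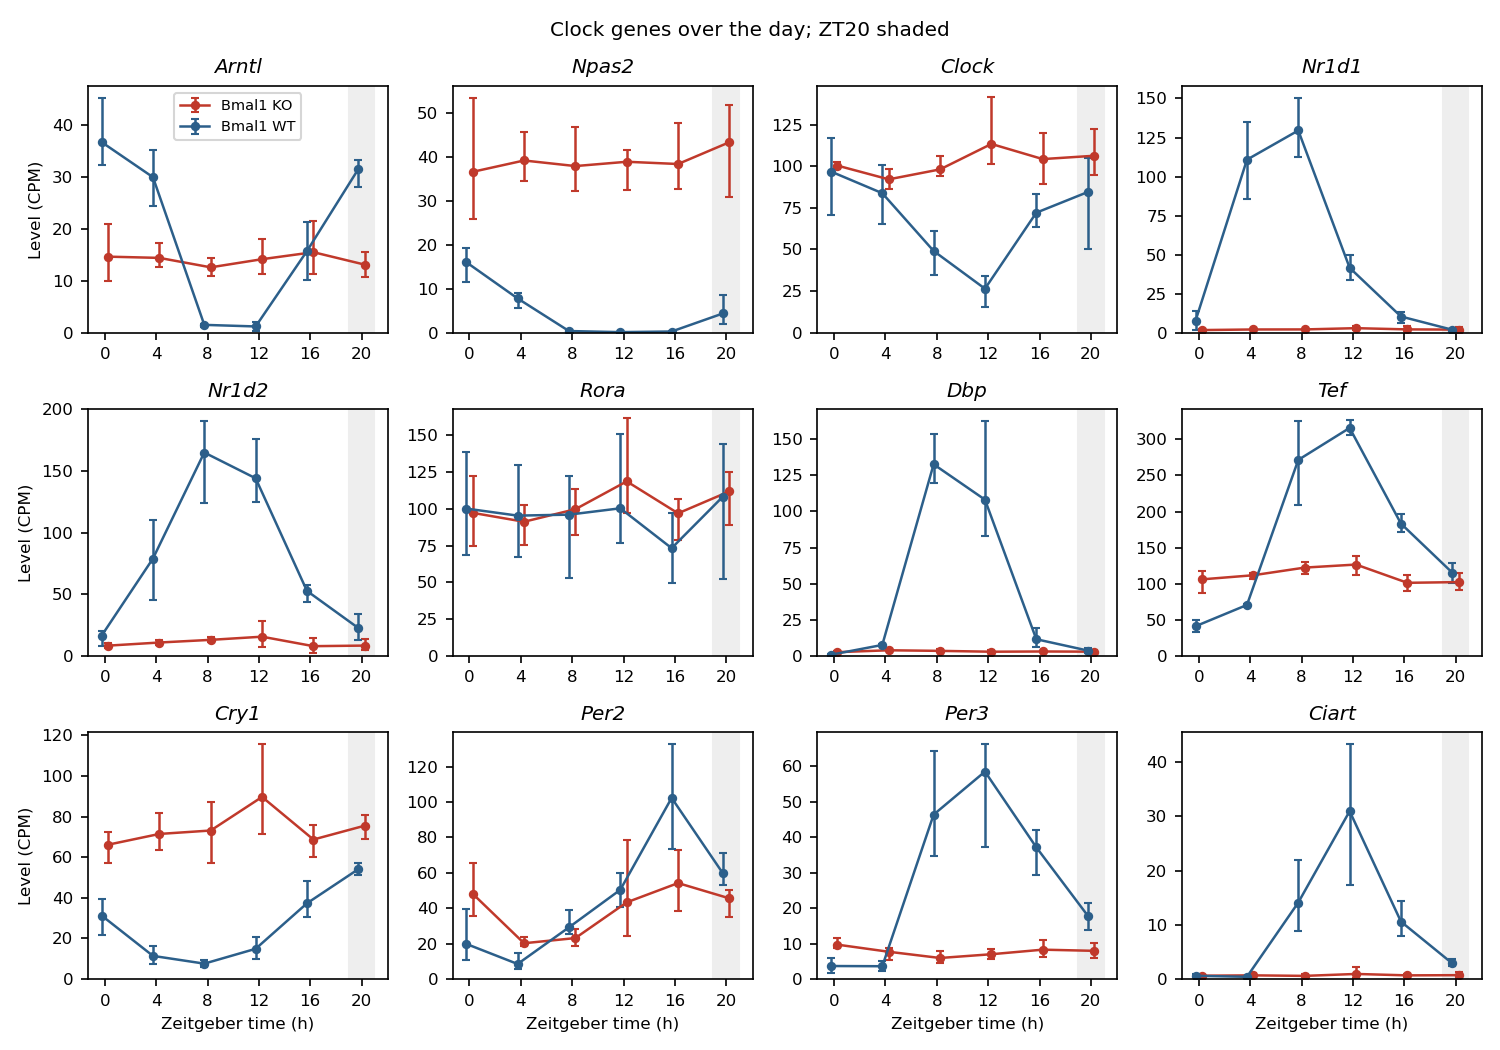
Levels of 12 clock genes in CPM (vertical axes, from 0) against zeitgeber time in h; points are means of 4 libraries (AL and RF) and bars run from the lowest to the highest library, KO in red and WT in blue, with ZT20 shaded. At ZT20 the WT curves of Nr1d1, Dbp and Tef meet the nearly level KO curves, while Npas2 and Arntl stay apart.

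Several clock genes, among them Nr1d1, Dbp, Tef, Per3, Cry1 and Npas2, were closer between genotypes at ZT20 than at ZT8. Others were not: the log2 fold changes at ZT20 and ZT8 were -0.58 and -0.19 for Per1, -0.39 and -0.33 for Per2, and 0.38 and 0.17 for Cry2. The difference of the knockout effect between the 2 times (ZT20 minus ZT8) was tested in the same fit, and 117 genes passed (0.678%), 46 with a difference above 0 (0.267%) and 71 below 0 (0.412%). For Nr1d1 the log2 fold change was 0.30 at ZT20 and -5.97 at ZT8, and the difference was 6.27 (SE 0.51, adjusted p = 5.4e-09). The WT mean of Nr1d1 fell from 130 CPM at ZT8 to 1.84 CPM at ZT20, while the KO means were 2.06 and 1.95 CPM. Without KO RF 4 the difference for Nr1d1 was 5.05 with an adjusted p of 0.21, and the KO RF group then rested on KO RF 2, the shallowest library.

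Dbp followed the same pattern, with -0.26 at ZT20, -5.28 at ZT8 and a difference of 5.01 (adjusted p = 1.73e-08). Its WT mean was 133 CPM at ZT8 and 3.69 CPM at ZT20, against 3.45 and 2.90 CPM in KO. Tef (difference 0.98, adjusted p = 0.00059) and Per3 (1.86, adjusted p = 0.00101) also had effects nearer to 0 at ZT20, with -1.15 and -2.95 at ZT8. Cry1, a gene repressed by REV-ERB, moved the other way. It was higher in KO by 3.25 log2 units at ZT8, where its WT mean was 7.61 CPM, and the difference was -2.76 (adjusted p = 5.37e-08). Npas2 remained higher at both times, by 6.67 at ZT8 and 3.48 at ZT20, and the difference of -3.18 (adjusted p = 6.03e-05) came with a WT mean of 0.362 CPM at ZT8 and 4.37 CPM at ZT20. Arntl, with a difference of -4.36 (adjusted p = 5.4e-09), was the clock gene whose call changed sign. At ZT8 the E-box list had 3 members higher (background 4.47%) and 11 lower (background 4.12%), and the RORE list had 8 higher and 1 lower.

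Genes outside the clock lists differed between the phases in both directions. Slc45a3, a solute carrier, measured 39.2 to 45.7 CPM in KO and 32.8 to 58.3 CPM in WT at ZT20, where it did not pass (-0.11, adjusted p = 0.895). At ZT8 its KO mean of 71.4 CPM stood against 9.65 CPM in WT, a difference between times of -3.03 (adjusted p = 6.67e-05). The DNA methyltransferase gene Dnmt3b had effects of 0.60 at ZT20 (adjusted p = 0.0704) and 3.13 at ZT8, with a difference of -2.53 (adjusted p = 5.06e-06). Lgalsl, a galectin-like gene, passed at both times, at 0.79 (adjusted p = 0.00803) and 2.89, with a difference of -2.10 (adjusted p = 1.87e-05). Its ZT20 call was lost in 3 of the 8 fits without 1 library. Nedd4l, a ubiquitin ligase gene, had -0.22 at ZT20 and 1.68 at ZT8. In the other direction the effects at ZT20 and ZT8 were 0.39 and -1.66 for Eepd1, -0.09 and -1.71 for the vitamin transporter gene Slc5a6, -0.25 and -1.48 for Tbc1d10a, and -0.82 and -2.12 for the arylsulfatase gene Arsa, which alone of these 4 passed at ZT20 (adjusted p = 0.00149).

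Of the 117 genes, 90 passed the KO against WT test at ZT8 and not at ZT20, 17 passed at both times, 9 at ZT20 and not at ZT8, and 1 at neither. The effect was larger in size at ZT8 for 102 and at ZT20 for 15. The comparison with the mean of the other 5 times called 15 genes (0.087%), 2 above 0 (0.0116%) and 13 below 0 (0.0754%). The 2 above 0 were Nr1d1 (4.36, SE 0.42, adjusted p = 3.22e-07) and Dbp (2.05, SE 0.36, adjusted p = 0.00852), and among those below 0 were Cry1 (-1.61, adjusted p = 3.09e-05), Arntl (-2.09, adjusted p = 3.09e-05) and Npas2 (-1.67, adjusted p = 0.0152). Calls for Cry1 and Arntl were kept in all 8 fits without 1 library, while Nr1d1 lost it without KO RF 4 (adjusted p = 0.719) and Dbp and Npas2 in 4 fits each, at adjusted p of up to 0.339 and 0.143.

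Of the 902 genes called at ZT20, 26 (2.88%) had a called difference from ZT8, beside 0.678% of all tested genes. Both tests use the same 8 ZT20 libraries, so a gene called at ZT20 is more likely to have a called difference. The higher share is therefore not separate evidence. In simulated counts the test of this difference recovered 45% of changes of 1 log2 unit and 81% of changes of 2 units. A gene without a called difference can therefore still differ. Between ZT20 and ZT8, which share no library, 493 genes were called in the same direction, 250 higher and 243 lower, which is 54.7% of the calls at ZT20 and 33.3% of the 1482 calls at ZT8 (8.59% of tested genes). Of the 902, 837 had the same sign at ZT8. Arntl, Dcun1d4, Ino80 and Parp10 were called in opposite directions at the 2 times, a group named after their values were seen. The ZT20 call of Parp10 held in 1 of the 8 fits without 1 library.

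**Figure D2:**
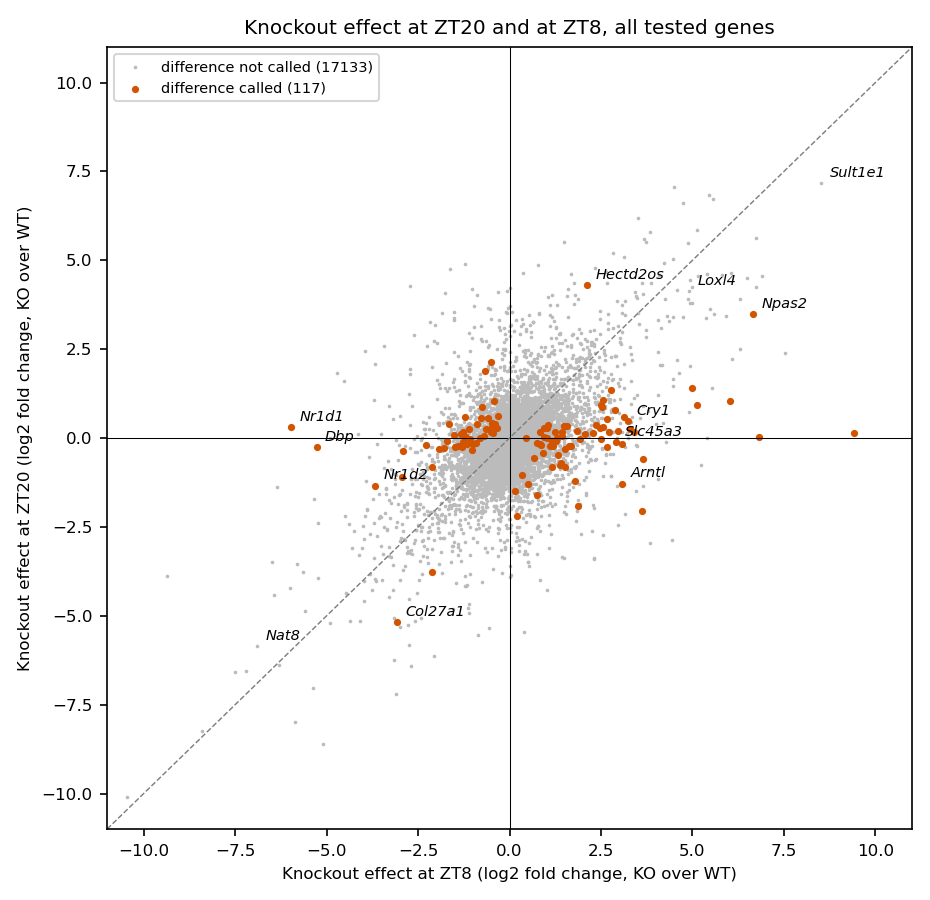
Knockout effect at ZT20 (vertical axis) against that at ZT8 (horizontal axis), both as log2 fold change of KO over WT, for all 17250 tested genes; orange points are the 117 genes whose 2 effects differed, and the dashed line marks equal effects. Nr1d1 and Dbp lie near 0 at ZT20 and far below 0 at ZT8, while Sult1e1 and Nat8 lie near the line.

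The largest rises at ZT20 with non-overlapping groups were in genes of other functions. Sult1e1, the estrogen sulfotransferase gene, measured 167, 61.0, 47.9 and 42.0 CPM in KO and 0.65, 0.126, 0.864 and 0.263 CPM in WT (log2 fold change 7.17, SE 1.05, adjusted p = 3.9e-05). Ntrk2, which encodes the neurotrophin receptor TrkB, was at 60.8 to 91.4 CPM in KO against 0.632 to 6.45 CPM in WT (4.63, SE 0.70). Tox2, an HMG-box factor gene, was at 14.8 to 36.9 CPM against 0.295 to 2.92 CPM (4.60, SE 0.51). Defb1, a beta-defensin gene, was at 6.75 to 11.5 CPM against 0.132 to 1.36 CPM (4.58, SE 0.59), and the phosphate carrier gene Slc34a2 at 45.5 to 119 CPM against 1.13 to 5.43 CPM (4.50, SE 0.58).

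Hectd2os, an antisense transcript of the Hectd2 locus, was at 127 to 159 CPM in KO and 4.75 to 10.3 CPM in WT (4.31, SE 0.41); the strand setting of the counting is not given, so its reads cannot be told apart from those of an overlapping gene. The collagen cross-linking enzyme gene Loxl4 was at 60.5 to 129 CPM against 3.03 to 8.04 CPM (4.14, SE 0.31, adjusted p = 3.26e-10). Nckap5 (4.06), the cytochrome P450 gene Cyp2c55 (3.98) and the actin-binding nebulette gene Nebl (3.95) completed the 10. These rises were kept in all 8 fits without 1 library except that of Nebl, which was lost in 3 of them (adjusted p up to 0.237, without KO RF 4). Hectd2os also differed between phases, with 2.12 at ZT8 and a difference of 2.19 (adjusted p = 0.0367) that passed in 2 of the 8 fits (adjusted p up to 0.161).

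The largest fall was in Trim12a, a TRIM gene with 0 reads in all 4 KO libraries and 3.57, 7.16, 9.37 and 4.08 CPM in WT. Against a floor of 3 reads over the 4 KO libraries it was at least 137-fold lower (adjusted p = 0.00463; 0.0574 without KO RF 4), and it lies in a cluster of near-identical genes 8.91 Mb from Arntl. Nat8, an N-acetyltransferase gene, measured 0.689, 1.22, 0.274 and 0.338 CPM in KO and 34.2, 38.2, 16.5 and 40.8 CPM in WT (-5.86, SE 0.56, adjusted p = 5.53e-08). Its neighbour and paralogue Nat8f5 was also lower, at 1.37 to 2.79 CPM against 36.7 to 43.1 CPM (-3.98, SE 0.63), and reads may be shared between such copies. The collagen gene Col27a1 was at 1.60 to 4.11 CPM against 73.8 to 200 CPM (-5.18, SE 0.38), and its fall was larger than that at ZT8 (-3.07; difference -2.11, adjusted p = 0.0254), a difference that passed in 4 of the 8 fits without 1 library (adjusted p up to 0.136).

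Asns, which encodes asparagine synthetase, was at 0.145 to 0.274 CPM in KO and 0.844, 3.75, 11.0 and 8.29 CPM in WT (-4.46, SE 0.86, adjusted p = 0.00126). The steroid hydroxylase gene Cyp17a1 varied among WT libraries, from 6.53 to 43.3 CPM, against 0.458 to 2.74 CPM in KO (-4.0, SE 0.96, adjusted p = 0.00976), and lost its call in 4 of the 8 fits without 1 library. Mme, which encodes the peptidase neprilysin, was at 3.56 to 6.85 CPM against 39.4 to 108 CPM (-3.84, SE 0.45). The phosphatase inhibitor gene Ppp1r1b was at 0.274 to 1.30 CPM against 5.25 to 12.8 CPM (-3.77, SE 0.27), and the glucuronosyltransferase gene Ugt1a9, which shares exons with its family, at 4.89 to 7.18 CPM against 58.9 to 86.9 CPM (-3.56, SE 0.32). Serpine2, a serine protease inhibitor gene, was lower by 3.37 log2 units in the fit (log2 fold change -3.37, SE 0.71, adjusted p = 0.00318; 0.057 without KO RF 4).

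**Figure D3:**
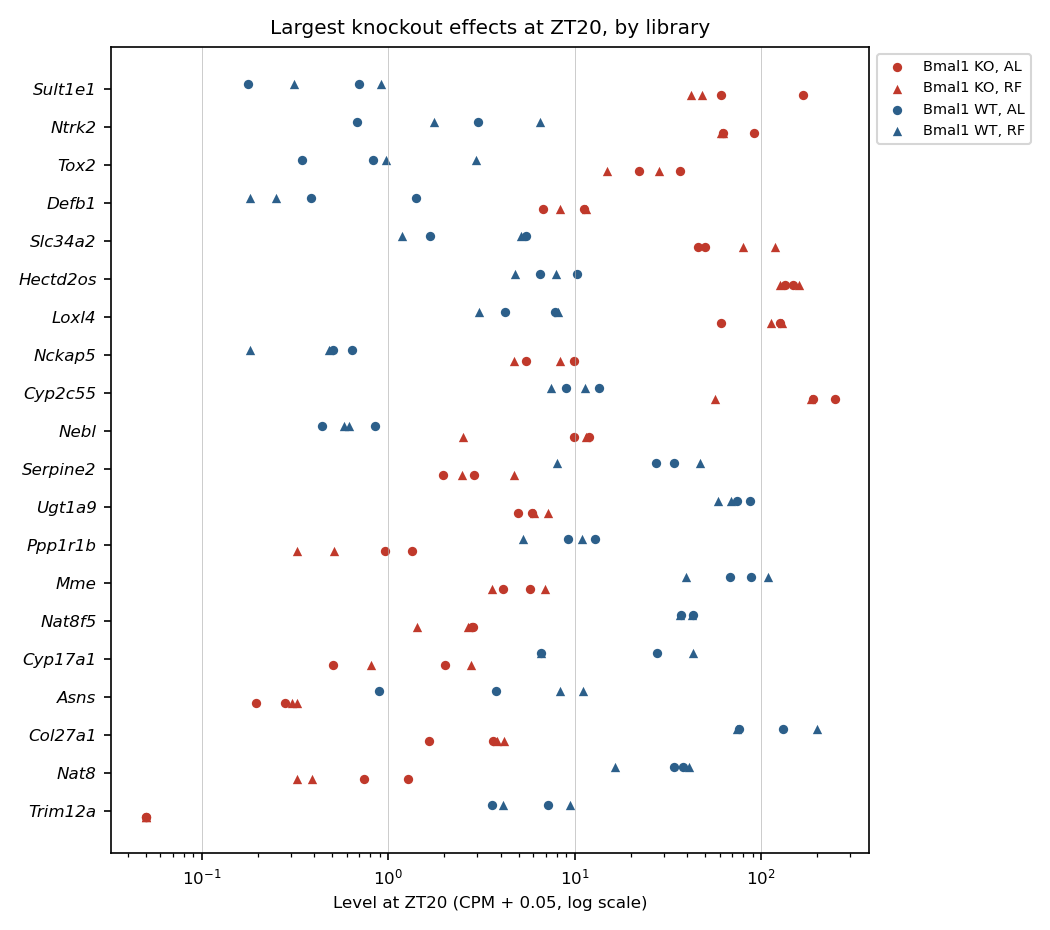
Level at ZT20 of the 10 genes with the largest rise and the 10 with the largest fall, 1 point per library, on a log axis of CPM with 0.05 added so that 0 can be drawn; red is KO, blue WT, circles AL and triangles RF. For each gene all 4 KO libraries lie on one side of all 4 WT libraries, and Trim12a is at 0 in KO.

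Lipogenesis and NADPH supply was the metabolic list with the most falls: 8 of 20 genes were lower (background 2.62%) and 0 higher (background 2.61%). Its median log2 fold change was -0.80. Scd1, the stearoyl-CoA desaturase gene, measured 3300, 3961, 1186 and 2560 CPM in KO and 11050, 13670, 16730 and 10850 CPM in WT (-2.32, SE 0.49, adjusted p = 0.00317). Thrsp, a lipogenic regulator gene that lies 15.8 Mb from Arntl, was at 145, 165, 73.7 and 244 CPM against 1376, 750, 639 and 872 CPM (-2.51, SE 0.43, adjusted p = 0.000325). Mlxipl, which encodes the sugar-responsive factor ChREBP and holds an E-box shown above, was at 208 to 259 CPM against 338 to 534 CPM (-0.81, SE 0.13, adjusted p = 0.000201). Khk, the ketohexokinase gene with the other E-box, was at 161 to 222 CPM against 190 to 510 CPM (-0.78, SE 0.18, adjusted p = 0.00689), and its groups overlapped. The calls of Scd1, Thrsp and Mlxipl were kept in all 8 fits without 1 library and that of Khk in 4. The count of 8 fell to between 3 and 5 without KO AL 1, KO RF 2, KO RF 4, WT AL 1 or WT RF 2. At ZT8 the same list also had 8 lower (background 4.12%), with 1 higher (background 4.47%).

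In the glycogen and glucose list 2 of 18 were lower: Gys2, the liver glycogen synthase gene, at 59.7 to 81.5 CPM in KO and 122 to 276 CPM in WT (-1.40, SE 0.20, adjusted p = 2.34e-05), and Fbp1 (-0.46, adjusted p = 0.0154). Fatty acid oxidation and PPARA targets had 1 of 22 higher, Pdk4, the inhibitor of pyruvate oxidation (1.56, SE 0.40, adjusted p = 0.0179), and 2 lower, among them Acaa1b, a peroxisomal thiolase gene (-1.32, adjusted p = 0.0471). Cholesterol synthesis had 0 of 21 called, with a median of 0.34, although 3 of its genes were higher in all KO libraries than in all WT libraries (background 4.91%). NAD genes had Nampt, the salvage enzyme gene and an E-box target, lower (-0.69, SE 0.16, adjusted p = 0.00586), Qprt lower (-0.43) and Kynu higher (0.82, SE 0.16, adjusted p = 0.00118) of 15. Of these, Gys2, Nampt and Kynu kept their call in all 8 fits without 1 library, Fbp1 and Pdk4 in 4, Qprt in 2 and Acaa1b in 0.

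Xenobiotic metabolism moved in both directions, with 9 of 29 genes higher (background 2.61%) and 4 lower (background 2.62%) and a median of 0.49. Beside Sult1e1 and Cyp2c55, the glutathione transferase gene Gstm3 was higher at 525, 712, 228 and 452 CPM against 176, 54.6, 68.7 and 47.9 CPM (2.48, SE 0.44, adjusted p = 0.000506). Cyp2c29 measured 2505 to 5681 CPM in KO and 895 to 1692 CPM in WT (1.65, SE 0.29, adjusted p = 0.0005). The receptor gene Ahr was higher (1.08, SE 0.19, adjusted p = 0.000376). Cyp2b10, a target of the xenobiotic receptor CAR, was at 22.2 to 64.1 CPM against 1.58 to 23.4 CPM (2.42, SE 0.71, adjusted p = 0.0404), and this call was lost in each of the 8 fits without 1 library. Genes of the Cyp2c and Gst families are near copies of each other, so reads may be shared among them. The D-box output list had 2 of 8 higher (background 2.61%), Cyp2b10 and Cyp2c50 (0.99). It had 2 lower (background 2.62%), Cyp2a5 (-1.51, SE 0.34, adjusted p = 0.00554) and Gys2. NRF2 targets had 3 of 11 higher, among them Gstm1 (0.90, adjusted p = 0.00734), and 2 lower, Gsta1 (-2.25) and the NADPH-producing G6pdx (-1.01). The bile acid list had 1 of 16 higher, the uptake carrier gene Slco1a4, at 206 to 237 CPM against 48.2 to 84.4 CPM (1.84, SE 0.36, adjusted p = 0.00127). Cyp2c50 and Gsta1 kept their call in 1 of the 8 fits without 1 library, G6pdx in 4 and Gstm1 in 6.

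Pericentral and periportal genes, which mark the zones of the liver lobule, were called in opposite directions at ZT20. Of 12 pericentral genes 4 were higher (background 2.61%) and 0 lower (background 2.62%), with a median of 0.76. These were Gstm3, the ornithine aminotransferase gene Oat at 2000 to 3371 CPM against 763 to 1042 CPM (1.67, SE 0.31, adjusted p = 0.000908), the WNT target Axin2 at 10.2 to 24.4 CPM against 3.42 to 6.70 CPM (1.56, SE 0.30, adjusted p = 0.00119), and Tbx3 (1.36, SE 0.35, adjusted p = 0.0188), whose call was kept in 4 of the 8 fits without 1 library. Oat lies 19.4 Mb from Arntl. The pericentral genes Glul, Cyp2e1 and Lgr5 were among the 8 that did not pass.

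Of 11 periportal genes 0 were higher (background 2.61%) and 3 lower (background 2.62%), with a median of -0.45. The 3 were Alb, Hsd17b13 (-0.90, SE 0.22, adjusted p = 0.0106) and Cdh1 (-1.04, SE 0.29, adjusted p = 0.0324). Hsd17b13 lost its call in 2 of the 8 fits without 1 library and Cdh1 in all 8, and the count fell to 1 without KO RF 4. Alb, the serum albumin gene, took 2.43%, 2.12%, 2.52% and 2.25% of normalised counts in KO AL 1, AL 8, RF 2 and RF 4. In the corresponding WT libraries it took 10.1%, 7.78%, 6.58% and 6.38%. The log2 fold change was -1.71 (SE 0.24, adjusted p = 2.94e-05) at ZT20 and -1.69 at ZT8. In whole tissue, fewer cells of a type or zone and less RNA per cell cannot be told apart.

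Several other lists gave 1 or 2 calls. With 5.23% of all tested genes called, a single call in a list of 12 to 20 genes is near the background share, and the values describe single genes. The amino acid response list had Atf5 higher (0.84, adjusted p = 0.019) and Asns lower of 13. The urea cycle and amino acid list had Oat higher and Asl, the argininosuccinate lyase gene, lower (-0.82, adjusted p = 0.0128) of 18. Of 16 heat shock genes 1 was lower, Hspb1, at 4.24, 2.06, 3.83 and 3.93 CPM against 28.1, 17.1, 16.7 and 16.2 CPM (-2.43, SE 0.43, adjusted p = 0.000484). Of 16 glucocorticoid response genes 1 was lower, Hsd11b1, which regenerates active glucocorticoid (-0.90, SE 0.17, adjusted p = 0.000918). At ZT8 that list had 6 higher (background 4.47%) and 1 lower (background 4.12%). Of 14 female-biased genes the prolactin receptor gene Prlr was higher, at 316 to 384 CPM against 83.9 to 119 CPM (1.80, SE 0.19, adjusted p = 1.64e-07), and Cyp17a1 lower. Single calls were Rrm2, a nucleotide reductase gene, lower among 18 cell cycle genes (-1.46, adjusted p = 0.00945), Wdr43 higher among 20 ribosome biogenesis genes (0.55, adjusted p = 0.0461), Angptl6 lower among 15 hepatokines and receptors (-0.77, adjusted p = 0.0129) and Foxo3 lower among 12 insulin and FOXO genes (-0.54, adjusted p = 0.037). Of the 20 ribosome biogenesis genes, 5 were higher in all KO libraries than in all WT libraries (background 4.91%) and 0 were lower in all. Their median was 0.32, and their summed level was 777 to 908 CPM in KO and 603 to 709 CPM in WT. This list was not tested as a set. Hspb1, Hsd11b1 and Prlr kept their call in all 8 fits without 1 library, Rrm2 in 7, Asl and Angptl6 in 4, and Atf5, Wdr43 and Foxo3 in 2.

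No gene passed at ZT20 among 20 male-biased genes, 11 of the growth hormone axis, 16 of the unfolded protein response, 12 immediate early genes, 13 of iron handling, 14 of the acute phase, 10 cell cycle gates and 2 cold-inducible RNA binding protein genes. Their medians ran from -0.44 for the immediate early genes to 0.36 for the cold-inducible pair. Of the 14 acute phase genes, 4 were lower in all KO libraries than in all WT libraries (background 4.71%) and 0 higher in all, with a median of -0.43. Of the 13 iron genes, 2 were lower in all KO libraries and 0 higher in all, with a median of 0.03. The summed level of the iron genes was 13730 to 16490 CPM in KO and 19310 to 24480 CPM in WT.

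**Figure D4:**
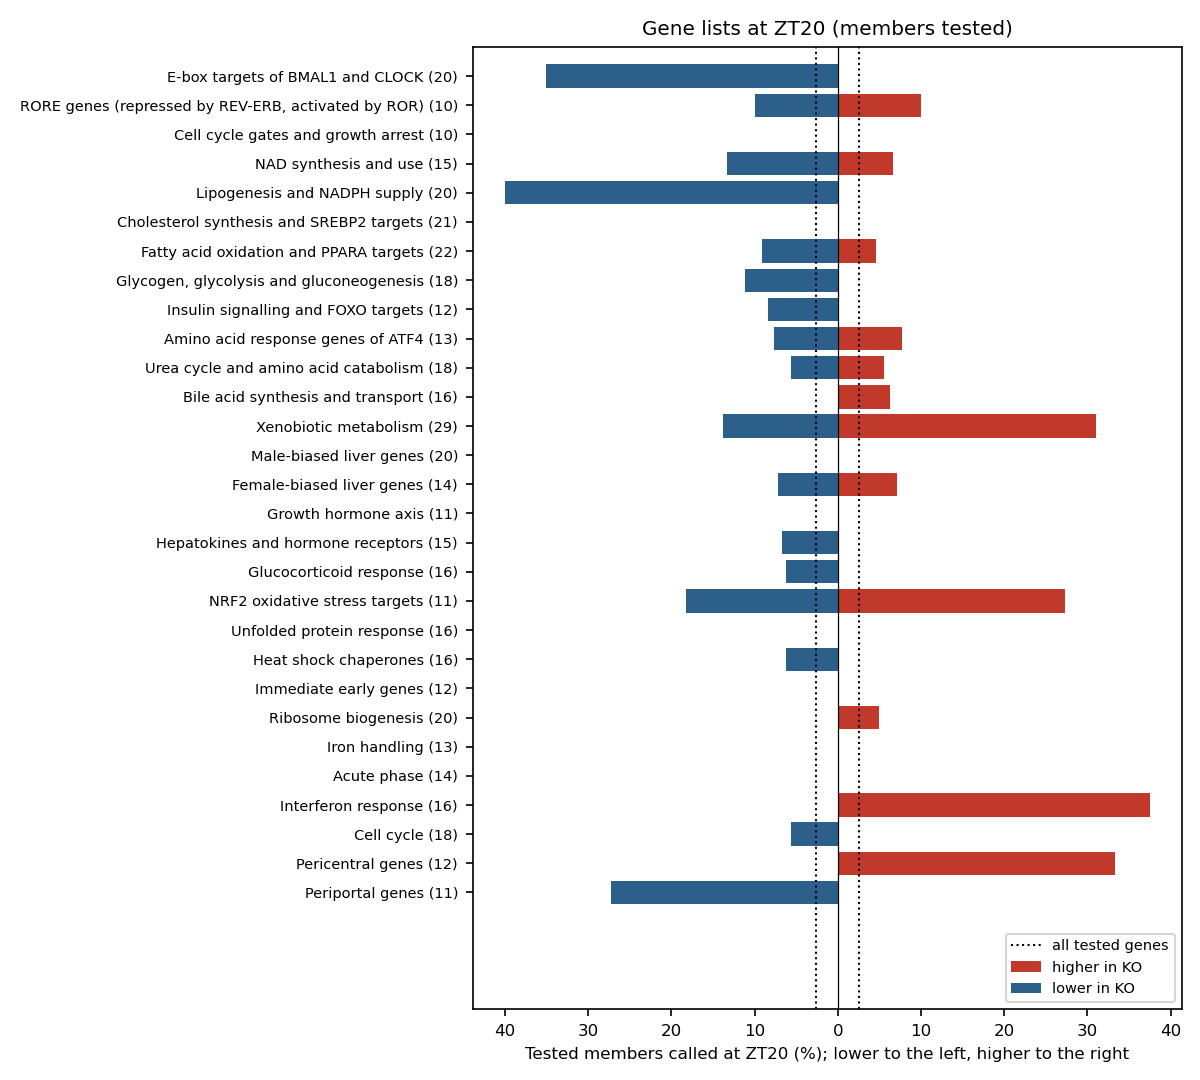
Share of tested members of each gene list with at least 10 tested members that were called at ZT20, in percent, higher in KO to the right and lower to the left; the number tested is in brackets and dotted lines mark the shares over all tested genes, 2.61% and 2.62%. The longest bars are those of lipogenesis and the E-box targets to the left and of the interferon response, pericentral genes and xenobiotic metabolism to the right.

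The interferon response had 6 of 16 genes higher (background 2.61%) and 0 lower (background 2.62%), and this rested mainly on 1 library. Isg15, a ubiquitin-like protein gene, measured 11.1, 4.89 and 12.9 CPM in KO AL 1, AL 8 and RF 2 and 106 CPM in KO RF 4, against 8.96, 3.62, 5.15 and 2.76 CPM in WT (2.13, SE 0.45, adjusted p = 0.0029). Rsad2, the antiviral viperin gene, was at 29.7, 12.9, 79.4 and 361 CPM in KO and 8.76 to 17.2 CPM in WT (2.44, SE 0.42, adjusted p = 0.000305). KO RF 4 was the highest library for both genes, KO RF 2 the next, KO AL 1 lay above the highest WT library, and KO AL 8 lay within the WT range. Usp18, which removes ISG15 from proteins, and the RNA sensor gene Ifih1 had the same highest library, at 88.9 and 164 CPM. Without KO RF 4 adjusted p was 0.25 for Isg15, 0.144 for Usp18, 0.596 for Ifit1 and 0.569 for Ifih1, and 1 list member was called. In fits of the 8 ZT20 libraries alone 0 were called, with adjusted p of 0.148 for Rsad2. The summed level of the 16 genes ran from 182 to 1578 CPM in KO and from 161 to 296 CPM in WT.

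Outside the list, the transcription factor gene Irf9 was at 30.7 to 87.3 CPM in KO and 27.4 to 38.9 CPM in WT (0.63, adjusted p = 0.0132), and the RNA editing gene Adar at 21.5 to 61.9 CPM and 15.6 to 22.6 CPM (0.81, adjusted p = 0.00173). Both lost their call without KO RF 4, at adjusted p of 0.205 and 0.0706. Parp10 was at 21.9 to 22.6 CPM in the other 3 KO libraries and 39.3 CPM in KO RF 4 (0.43, adjusted p = 0.0417; 0.639 without that library), and the call was kept in 1 of the 8 fits without 1 library.

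**Figure D5:**
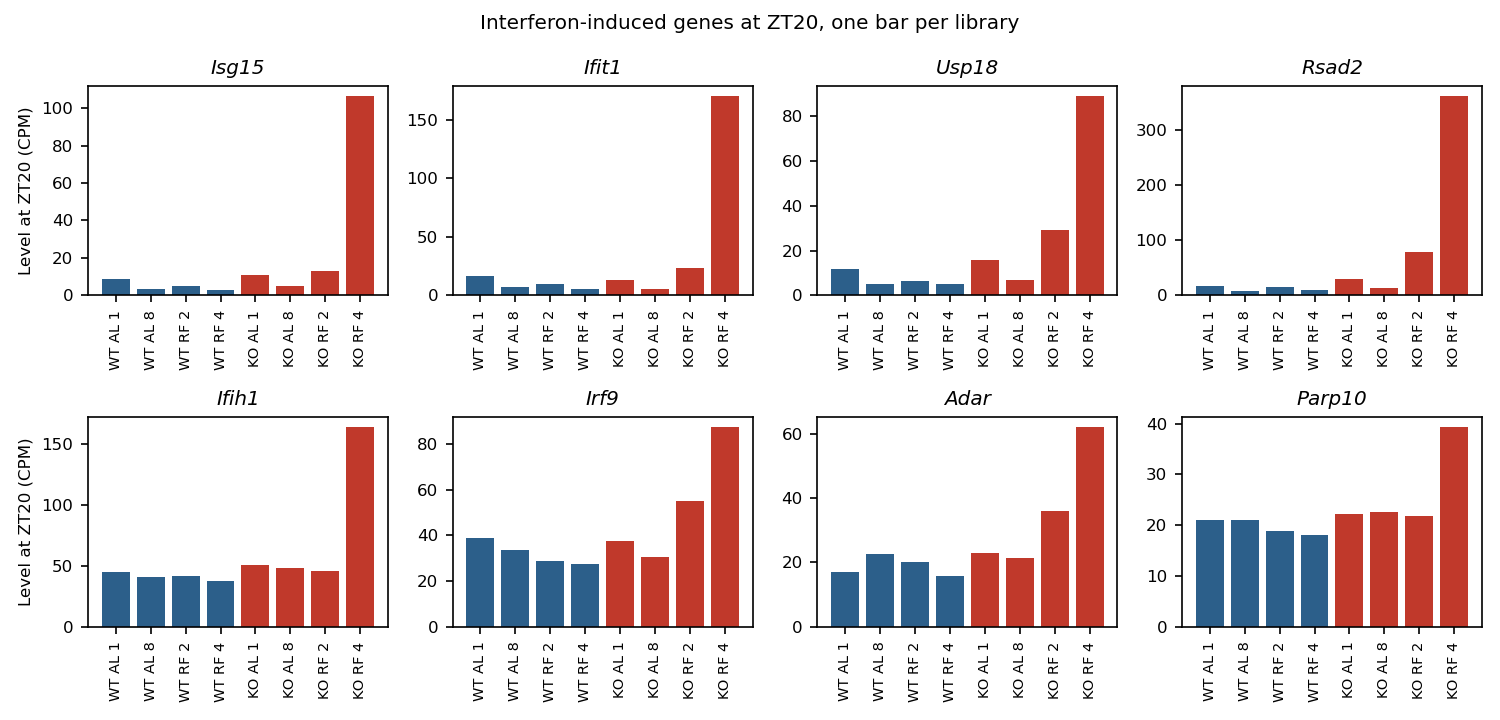
Level at ZT20 in CPM (vertical axes, from 0) of 8 interferon-induced genes, 1 bar per library, WT in blue and KO in red. KO RF 4 is the highest bar in each panel, at 106 CPM for Isg15 and 361 CPM for Rsad2, and KO AL 1, at 11.1 and 29.7 CPM for these genes, is nearer to WT.

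Within feedings, KO differed from WT at ZT20 for 260 genes under AL (1.51%), 131 higher (0.759%) and 129 lower (0.748%), and for 281 genes under RF (1.63%), 173 higher (1.0%) and 108 lower (0.626%). The calls in both numbered 131, all in the same direction, which is 50.4% of those under AL and 46.6% of those under RF. Of the 260 genes called under AL, 256 had the same sign under RF. With 2 libraries per group these counts rested on single ones: the AL count was 97, 76, 76 and 668 without KO AL 1, KO AL 8, WT AL 1 and WT AL 8, and the RF count was 40, 80 and 115 without KO RF 4, WT RF 2 and WT RF 4. The interferon list had 11 of 16 called higher under RF and 0 under AL.

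The difference of the knockout effect between feedings passed for 0 of 17250 genes (0.0%) by edgeR, with 662 at an unadjusted p under 0.05, 4 genes by DESeq2 and 212 with no filter on low counts. The smallest p-values above 0 were for Mitd1 (1.57, SE 0.32, adjusted p = 0.539) and for the interferon-induced genes Irf9 (1.44), Znfx1 (1.33), Ifit1 (3.96) and Rsad2 (3.40), each with an adjusted p of 0.738. The count was 20 without KO RF 2, where KO RF 4 was the lone KO RF library and its spread was taken from the other groups.

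Few markers of other cell types were called. No marker of Kupffer cells (11 tested), B and T cells (12), neutrophils (5), endothelial cells (10), stellate cells (11) or adipocytes (5) passed. Below 1 CPM in every ZT20 library were 4 of 5 adipocyte, 2 of 5 neutrophil and 3 of 12 B and T cell markers. The median log2 fold change was -0.62 for Kupffer, -0.69 for B and T cell and -0.59 for neutrophil markers. It was -0.33 for endothelial, -0.45 for stellate and -0.29 for cholangiocyte markers. Erythroid markers had 0.29, adipocyte 3.70 and pancreas 0, beside 0.01 over all tested genes. These lists were not tested as sets. The summed level of Kupffer markers was 155 to 378 CPM in KO and 153 to 531 CPM in WT, that of B and T cell markers 21.7 to 77.0 and 37.4 to 115 CPM, and that of neutrophil markers 0.229 to 4.11 and 0.658 to 4.02 CPM. Among 6 cholangiocyte markers Sox9 was higher (1.02, SE 0.26, adjusted p = 0.0181), with a summed level of 43.0 to 84.0 CPM in KO and 35.2 to 58.9 CPM in WT. Among 7 erythroid markers Alas2, the heme synthesis gene, was lower (-1.12, SE 0.29, adjusted p = 0.0193). Of 8 exocrine pancreas markers Cela1, an elastase gene, was higher, at 41.1 to 57.3 CPM against 7.64 to 25.3 CPM (1.55, SE 0.40, adjusted p = 0.0182), and the other 7 were below 1 CPM in every library. Sox9 and Cela1 kept their call in 4 of the 8 fits without 1 library and Alas2 in 2. The 8 hepatocyte markers were abundant in both genotypes, with summed levels of 61180 to 65730 CPM in KO and 109000 to 144000 CPM in WT, and 1 of them, Alb, was lower. Alb alone measured 21210 to 25180 CPM in KO and 63780 to 100800 CPM in WT. The median log2 fold change of the 8 markers was -0.09. The part of cell composition in the results was not tested.

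A knockout made by gene targeting can carry a chromosome segment from another strain around the target. Within 20 Mb of Arntl on chromosome 7, 28 of 407 tested genes were called at ZT20 (6.88%), 9 higher and 19 lower, against 874 of the 16843 others (5.19%). Named genes in that segment were Arntl, Trim12a, Thrsp, Oat and Qprt. For these the knockout and a flanking segment cannot be told apart.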

How the data were processed

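The submitters' processing notes name STAR 2.4.0i and mm10 for the alignment; how reads were counted, with which strand setting and which gene models, is not given in the sources used here. The authors deposited raw, whole-number counts for each Ensembl gene and library, without normalisation, and every column (0 exceptions) was tied to a sample. Libraries were made with a stranded mRNA kit, per the labels' protocols. GENCODE M21 gave a symbol for 55154 of 55421 identifiers.

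All 48 Bmal1-line libraries were fitted with edgeR 4.0.16 (R 4.3.3), using TMM scaling, filterByExpr (minimum count 10, total 15) and 1 mean per genotype, feeding and time, which left 24 residual degrees of freedom and kept 17250 genes with 99.958% of counts. Each log2 fold change averages AL and RF with equal weight. The tests are two-sided quasi-likelihood tests with Benjamini-Hochberg adjustment over all tested genes, and a call is an adjusted p under 0.05. Levels are TMM-normalised CPM, and the spread between libraries exceeds counting error: chi-square over its degrees of freedom was 29.1 to 73.8 within the 4 groups of 2 at ZT20, and no pair was identical. The code was tested on simulated data.

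Replicate numbers are shared between genotypes, and deviations of same-numbered libraries at ZT20 correlated at 0.0514 (AL) and 0.0541 (RF). With 2 libraries per group the 2 deviations mirror each other, so this is 1 contrast per feeding and cannot decide whether the numbers pair libraries. The main fit leaves the numbers out. With the replicate number as a block it called 1158 genes at ZT20, against 902 without. Alternatives were RLE factors, a filter at a mean of 1 CPM or none, all 96 libraries, limma 3.58.1 (voom), DESeq2 1.42.0, the replicate block, the 8 libraries alone and leaving out each library.

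The members and gene lists were chosen with earlier results of these data known. Named genes are the clock genes, the 10 largest rises and falls among called, non-overlapping genes that reached 5 CPM in 1 genotype, up to 4 called members per list with the smallest p, and the 8 (between phases) or 5 (between feedings) smallest p in each direction, from which the text takes a selection. List counts stand without a test of the list and include members that are not reported here.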

Additional observations from a re-analysis of the deposited data

Results flagged for a closer look

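In groups of 4 libraries the highest or lowest library was set against the other 3 (Dixon's test of the gap over the range, at 95%). Of 188 groups tested over the named genes at ZT20, 15 stood apart, and chance flags about 1 in 20. KO RF 4 was high for 5 genes: 164 CPM for Ifih1, 170.1 CPM for Ifit1, 106 CPM for Isg15 and 39.3 CPM for Parp10, all interferon-induced, and 62.3 CPM for Hlf. WT AL 1 was high for Gstm3 (176 CPM), Hspb1 (28.1 CPM) and Defb1 (1.36 CPM) and low for Kynu (179 CPM). KO AL 1 was high for Sult1e1 (167 CPM) and Ntrk2 (91.4 CPM). KO RF 2, the shallowest library, was low for Foxo3 (26.6 CPM) and Nat8f5 (1.37 CPM). KO AL 8 was high for Acaa1b (489 CPM) and WT RF 4 for Ahr (49.7 CPM).

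The knockout effect differed between ZT20 and ZT8 (ZT20 minus ZT8, log2, edgeR interaction contrast) by 6.27 for Nr1d1, 5.01 for Dbp, 2.19 for Hectd2os, 2.05 for Eepd1, 1.86 for Per3, 1.62 for Slc5a6, 1.30 for Arsa, 1.23 for Tbc1d10a and 0.98 for Tef. It differed by -4.36 for Arntl, -3.18 for Npas2, -3.03 for Slc45a3, -2.76 for Cry1, -2.53 for Dnmt3b, -2.11 for Col27a1, -2.10 for Lgalsl and -1.90 for Nedd4l. Among other named genes it differed by 2.64 for Isg15, 2.33 for Nr1d2, 0.95 for Irf9, 0.92 for Parp10, -1.87 for Nfil3 and -1.635 for Ppp1r1b. KO RF 4 was the highest ZT20 library for Isg15, Irf9 and Parp10. Against the mean of the other 5 times the knockout effect differed by 4.36 for Nr1d1, 2.05 for Dbp, -1.61 for Cry1, -2.09 for Arntl, -1.67 for Npas2, -1.26 for Dnmt3b and -1.04 for Nedd4l. All of these passed an adjusted p of 0.05 over 17250 genes.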

How the results depend on the processing

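With each library left out in turn, the number of genes called at ZT20 ran from 432 (without KO RF 4) to 1153 (without WT AL 8). The AL count ran from 76 to 668, the RF count from 40 to 272, the difference between feedings from 0 to 20, the difference between ZT20 and ZT8 from 81 to 126, and that from the other 5 times from 4 to 39. Where this left 1 library in a group, its spread was taken from the other groups. Without a filter on low counts the 6 counts, in that order, were 1653, 835, 1069, 212, 621 and 395. DESeq2 called 424 under AL, 467 under RF, 4 between feedings, 209 between ZT20 and ZT8 and 66 against the other times. With a mean of at least 1 CPM the last count was 24. The other alternatives stayed within 1.5 times of the main counts, and the ZT20 count was 650 in the 8 libraries alone, where 17 named genes lost their ZT20 call and 1 (Cry1) gained one.

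With the replicate block the counts were 1158 at ZT20, 375 under AL, 365 under RF, 0 between feedings, 142 between ZT20 and ZT8 and 22 against the other times, and 665 in the 8 libraries alone with the block. In the fit of 48 libraries the block gave Dnmt3b a call at ZT20 (adjusted p = 0.0418), ended that of Gsta1 (0.0527) and changed the call of no other named gene.

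Of the 75 named genes called at ZT20, 39 kept the call in all 8 fits without 1 library. Changes of sign were limited to named genes that were not called. Over the 8 fits Dbp ran from -0.59 (without WT AL 8) to 0.23 (without WT AL 1), Nr1d1 from -0.92 (without KO RF 4) to 0.48 (without KO RF 2), and Hlf from -0.22 (without WT RF 2) to 0.082 (without WT RF 4), with 0.013 without WT AL 8. Rora ran from -0.059 (without WT AL 1) to 0.37 (without WT AL 8), with -0.0021 without KO AL 1, Slc45a3 from -0.26 (without WT RF 2) to 0.068 (without WT RF 4), and Slc5a6 from -0.25 (without WT RF 4) to 0.19 (without WT RF 2). At the depth of KO RF 2 a gene at 5 CPM has about 18.3 reads, which limits RF values of genes such as Nr1d1, Bhlhe41 and Ciart.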
